A study of Mus musculus with 12 samples.

Results

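The comparison described here is that of LRH-1 knockout with control liver on a standard diet. It was read from 6 of the 12 libraries of the series, 3 labelled knockout and 3 labelled control, and covers all 24062 genes listed. The 6 libraries were chosen by their labels alone, and every high-fat diet sample was left out. All 6 came from livers of male mice of the mixed 129SvEV-C57BL/6 background, aged 14 weeks and kept on the standard diet for 6 weeks. Every animal, controls included, carried floxed Nr5a2 (fl) alleles, in which the gene stays functional until Cre recombinase acts. The knockout group had received AAV8-Cre, an adeno-associated virus vector that delivers Cre mainly to hepatocytes. The controls had no Cre and, by the text of the series, were given AAV8-eGFP. The promoter that drives Cre is not given in the sources used here. Because the tissue is whole liver, cells that the vector did not reach were sequenced along with the rest.

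LRH-1, the product of Nr5a2, is a nuclear receptor that binds DNA as a monomer and holds a phospholipid in its ligand pocket. In hepatocytes it is known as an activator of bile acid, cholesterol and phospholipid genes and of Nr0b2. Nr0b2 encodes SHP, a corepressor that lacks a DNA-binding domain and restrains bile acid synthesis. Because bile acids, phosphatidylcholine and cholesterol leave the hepatocyte together as bile, their enzymes and transporters are described first.

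Total counts were 2371167 to 3404570 per library, and 13586 to 13950 genes had at least 1 count. On the first principal component (45.1% of variance) the controls lay between -23.3 and -16.6 and the knockouts between 16.8 and 24.5, while the second (19.6%) ran mainly from control 2 to control 1. Of 10 hepatocyte markers edgeR and DESeq2 called 0. At an unadjusted p under 0.05 there was 1, beside 1893 of all 9412 genes tested. The log2 fold changes of the 10 lay between -0.83 and 0.10. Their summed level was 151800 to 184000 CPM (counts scaled to the normalized library size) in controls and 147600 to 202100 in knockouts. That sum is largely Alb, which held 8.8% to 13.2% of the counts of a library. Nr5a2 itself was not lower in the libraries labelled knockout. It stood at 84.9, 75.8 and 86.7 CPM in the controls and at 97.0, 102 and 96.9 CPM in the knockouts (log2 fold change 0.26, SE 0.11, edgeR adjusted p = 0.207). Counts summed over a gene can test a deletion only where the removed exons are counted apart, and the labels do not name those exons. Each direction below therefore rests on the labels.

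Of the 9412 genes with enough counts to test, 683 (7.26%) passed at an adjusted p under 0.05, which is the meaning of "passed", "rose" and "fell" throughout. Falls outnumbered rises, with 430 genes lower (4.57%) and 253 higher (2.69%) in the knockouts. The counts of list members given below stand beside these shares of all genes tested. By at least 2-fold, 101 genes rose and 141 fell, and by at least 4-fold 28 rose and 28 fell. The excess of falls was found among highly expressed genes. With the genes split by mean CPM into 3 classes of like size, 124 rose and 283 fell in the highest class, 83 and 98 in the middle one and 46 and 49 in the lowest. The groups of 3 did not overlap for 678 of the 683 genes, and this was so for 25.3% of all genes tested. The median log2 fold change of all genes tested was 0.0037.

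**Figure D1:**
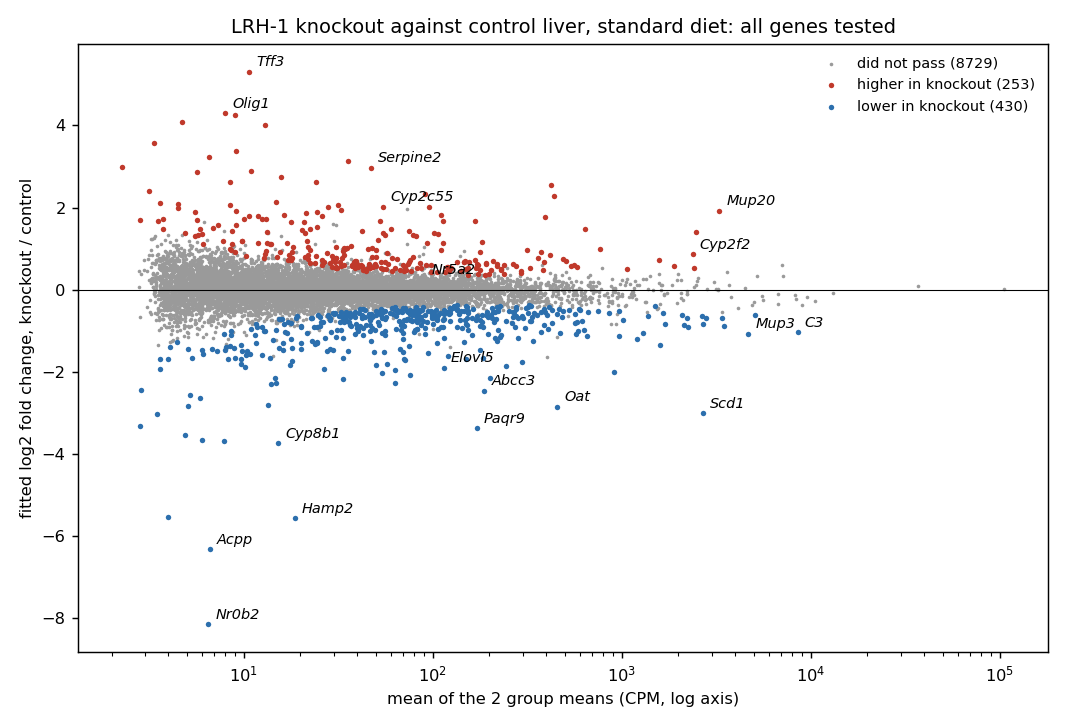
Fitted log2 fold change (knockout over control) of each of the 9412 genes tested against the mean of the group means in CPM on a log axis, coloured by the edgeR call. The 430 genes that fell (blue) reach into the highest expressed genes, such as C3 and Scd1, and the fitted values of Nr0b2 and Acpp rest on knockout groups with 0 and 1 counts.

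Leaving out 1 library changed how many genes passed. The 683 calls became 308 without control 3, 374 without knockout 2 and 386 without knockout 3, and lay between 554 and 752 without any of the others. No called gene turned its direction under any alternative, and 272 genes (76 higher, 196 lower) passed whichever library was left out. Genes named below as having risen or fallen passed under every alternative run unless the text says otherwise. Fewer cells of a type and less RNA per cell cannot be told apart in bulk tissue.

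Textbook LRH-1 targets were the group with the largest share of falls, 10 of 12 tested against 4.57% of all genes, with 0 rises (1 without control 1) and a median log2 fold change of -1.48. The fall of Nr0b2 was complete at this depth. Its level was 10.6, 15.5 and 12.9 CPM in the controls, and none of the 3 knockouts held a count. Against the limit of 3 counts over the group, that is at least 35.5-fold lower (adjusted p = 6.28e-05). The bound was 22.8-fold without knockout 1. Cyp8b1 encodes the enzyme that hydroxylates sterols at carbon 12 and so commits them to cholic acid. It read 47.9, 20.4 and 17.3 CPM in controls and 4.07, 1.23 and 0.713 CPM in knockouts. The highest knockout stayed under the lowest control (log2 fold change -3.74, SE 0.53, adjusted p = 0.000927), and the value was -3.15 without control 1 and -4.82 without knockout 1. Of the other targets Abcc3, Abcg5, Abcg8, Scarb1 and Gls2 are taken up with their pathways.

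Other targets were measured less firmly. Cyp7a1, the rate-limiting enzyme of bile acid synthesis, did not pass. It varied in the controls (2459, 334 and 748 CPM) far more than in the knockouts (1532, 1463 and 1228 CPM), and the control range spanned that of the knockouts. Its log2 fold change was 0.26 (adjusted p = 0.825), 1.38 without control 1, where it passed (adjusted p = 0.0073), and -0.19 without control 2. Got2, the mitochondrial aspartate aminotransferase, was 149, 159 and 154 CPM in controls and 129, 134 and 123 CPM in knockouts (-0.26, SE 0.10, adjusted p = 0.149). Plk3, a kinase described as part of an LRH-1 stress response, went from 11.8, 27.3 and 32.1 CPM to 5.76, 10.6 and 9.98 CPM (-1.46, SE 0.34, adjusted p = 0.0209). That call ended with all 12 libraries in the fit and without control 2, control 3 or knockout 1.

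The DNA element of the receptor was looked for in the promoters of the genes that fell. Receptors of the NR5A family bind extended half-sites, searched here as CAAGGTCA or CAAGGCCA on both strands in RefSeq promoter windows of the build GRCm38.p6, 250 bases before to 50 after a start site. The windows below are from genes picked by the naming rule that fell under every alternative run. Each holds such a match upstream of the start site. Sftpa1, Nqo2 and Rtn4, named outside that rule, did so as well and are not printed. The windows are written 5′ to 3′ on the strand of the gene, with the match in capitals.
Nr0b2 (chr4:133553149-133553208, plus strand): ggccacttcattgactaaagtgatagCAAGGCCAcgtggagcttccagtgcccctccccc
Apon (chr10:128253932-128253991, plus strand): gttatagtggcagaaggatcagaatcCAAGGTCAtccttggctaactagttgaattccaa
Cyp4f14 (chr17:32917209-32917268, minus strand): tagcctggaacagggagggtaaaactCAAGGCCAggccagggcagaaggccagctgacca
Acaa1b (chr9:119157243-119157302, minus strand): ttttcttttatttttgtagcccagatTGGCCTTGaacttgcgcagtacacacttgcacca
C3 (chr17:57228277-57228336, minus strand): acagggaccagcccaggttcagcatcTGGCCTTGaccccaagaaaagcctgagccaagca
Mgst1 (chr6:138141406-138141465, plus strand): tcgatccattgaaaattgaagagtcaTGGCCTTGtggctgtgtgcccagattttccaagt
Agt (chr8:124569889-124569948, minus strand): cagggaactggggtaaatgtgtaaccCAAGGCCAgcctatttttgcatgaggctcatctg
The match begins 201 bases before the start site in Nr0b2, 173 in Apon, 155 in Cyp4f14, 183 in Acaa1b, 174 in C3, 155 in Mgst1 and 216 in Agt. Cyp4f14 holds another match 96 bases before its start. In Acaa1b, C3 and Mgst1 the match reads on the opposite strand.

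Over all genes, a match was more frequent among promoters of genes that fell. Of the 430 genes that fell, 345 (80.2%) had a promoter in the table, and 33 of these (9.57%) held a match. Over all genes tested the share was 3.47% (262 of 7540), and over all 32851 promoter windows listed it was 3.92%. The share among genes that fell was 5.71%, 9.41% and 10.2% in the lowest, middle and highest class of expression, beside 3.65%, 3.05% and 3.72% of all genes tested in those classes. CAAGGCCA alone was in 7.25% of the fallen and 2.25% of all, and CAAGGTCA alone in 2.32% and 1.27%. A shorter core, AAGGTCA or AAGGCCA, which overlaps the longer motif, was in 16.2% and 10.2%. Of the genes that rose only 72.7% (184) had a promoter in the table, beside 80.1% of all genes tested, so their shares are less complete. Of those 184 genes, 4 (2.17%) held the longer motif and 26 (14.1%) the shorter core. The shorter core was thus above its share of all genes among rises as well as falls. Several of the steepest falls, among them Cyp8b1, Oat, Acpp and Hamp2, held no match to the longer motif in this window. Matches describe letters in a window, and binding was not measured.

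**Figure D2:**
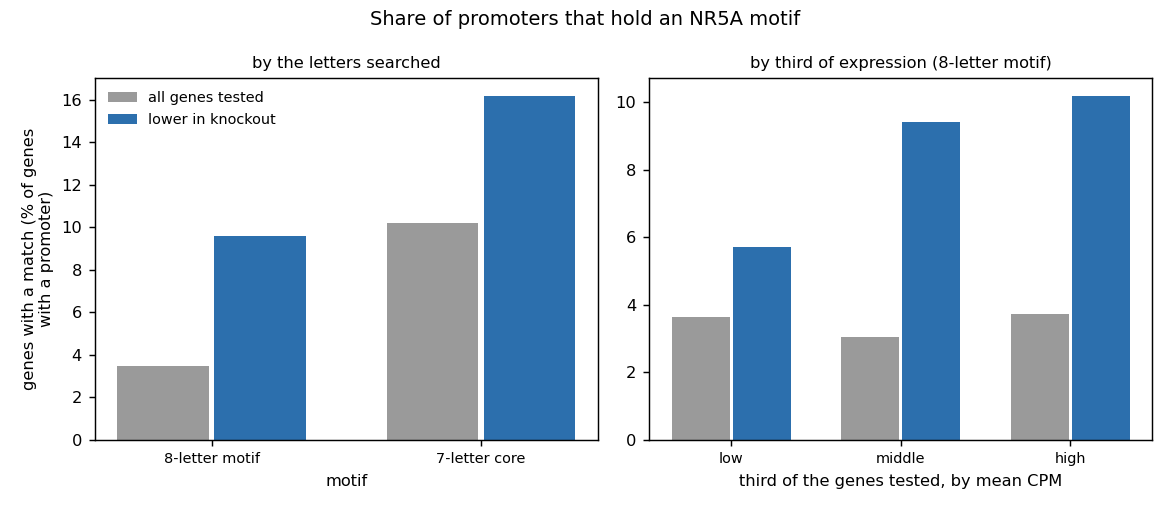
Percent of genes with a match to the NR5A motif in a promoter window, for all genes tested (grey) and genes that fell (blue), by the letters searched (left) and by the 3 classes of mean CPM (right). Among genes that fell the share with the 8-letter motif was 9.57% against 3.47%, and it was the higher of the pair in each class.

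In bile acid synthesis, where enzymes modify the sterol rings, shorten the side chain and join the acid to taurine, 5 of 17 genes fell and 0 rose. Rises numbered 2 without control 1, 3 without knockout 1 and 1 without knockout 3. Akr1c6, a ketosteroid reductase, read 1867, 1693 and 1740 CPM in controls and 874, 826 and 832 CPM in knockouts. The 3 knockouts lay close together, all under the lowest control (log2 fold change -1.07, SE 0.11, adjusted p = 6.07e-05). Hsd3b7, which oxidizes the sterol 3-hydroxyl, went from 195, 210 and 158 CPM to 97.3, 110 and 88.0 CPM (-0.93, SE 0.13, adjusted p = 0.000788). Slc27a5, the bile acid CoA ligase, was lower by a smaller step (-0.56, SE 0.12, adjusted p = 0.0136), and its call ended without control 3, knockout 2 or knockout 3. Without any 1 of the same 3 libraries the list held 3 falls. The alternative-pathway hydroxylase Cyp7b1 stood at 348, 292 and 271 CPM in controls and 226, 523 and 625 CPM in knockouts, so the groups overlapped and it did not pass (adjusted p = 0.233).

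Bile transporters fell on both faces of the hepatocyte, 5 of 15, while 2 rose. Slc10a1 is the sodium-dependent transporter that takes up bile acids from blood. It read 816, 832 and 705 CPM in controls and 386, 359 and 361 CPM in knockouts (log2 fold change -1.09, SE 0.11, adjusted p = 6.28e-05). At the canalicular face the bile salt export pump Abcb11 went from 351, 471 and 421 CPM to 257, 268 and 253 CPM (-0.67, SE 0.12). Abcc2, an exporter of conjugates at the same face, went from 1301, 1125 and 1388 CPM to 831, 745 and 723 CPM (-0.73, SE 0.12). The basolateral exporter Abcc3 fell furthest of the transporters, from 289, 351 and 312 CPM to 83.1, 59.6 and 29.6 CPM (-2.46, SE 0.25, adjusted p = 7.28e-05). The levels of the 3 knockouts for Abcc3 were spread over more than 2-fold, and all lay under the controls. In the other direction, the organic anion importer Slco1a4 rose from 134, 96.6 and 108 CPM to 322, 240 and 194 CPM (1.16, SE 0.17, adjusted p = 0.00132). Abcb1b, a multidrug exporter, rose from 0.393, 1.63 and 1.85 CPM to 5.08, 7.76 and 17.1 CPM (2.87, SE 0.57, adjusted p = 0.00852, and 2.22 without knockout 3).

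Sterol export fell together with the export of phosphatidylcholine. Abcg5 and Abcg8 encode the subunits of the canalicular sterol exporter. Abcg5 read 64.4, 101 and 103 CPM in controls and 19, 23.3 and 34.2 CPM in knockouts (log2 fold change -1.81, SE 0.22). Abcg8 read 106, 168 and 150 CPM and 51.5, 48.6 and 44.2 CPM (-1.55, SE 0.16). In both genes control 1 was the lowest control and still stood above every knockout. Scarb1, the HDL receptor, went from 63.2, 59.5 and 58.0 CPM to 34.9, 30.6 and 32.8 CPM (-0.87, SE 0.12, adjusted p = 0.000927). Abcb4, the flippase that moves phosphatidylcholine into bile, went from 112, 98.7 and 112 CPM to 55.9, 54.3 and 52.4 CPM (-0.99, SE 0.11, adjusted p = 0.000205). Of 15 genes of sterol efflux and HDL, 4 fell and 0 rose. The fourth, the cholesterol acyltransferase Lcat (-0.47, SE 0.11), lost its call without control 2, control 3 or knockout 3.

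In cholesterol synthesis and its regulators 7 of 25 genes were lower and 0 higher. Without control 3 the falls were 4, and without knockout 1 there were 3 rises. Tm7sf2, a sterol reductase of the pathway, went from 33.8, 45.3 and 37.6 CPM to 15.9, 21.6 and 19.6 CPM (log2 fold change -1.03, SE 0.17). Insig1, which holds the sterol sensor in the endoplasmic reticulum, went from 246, 277 and 285 CPM to 147, 170 and 173 CPM (-0.72, SE 0.11).

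Genes that lengthen and desaturate fatty acids fell in 5 of 15 cases and rose in 0, with a median log2 fold change of -0.38 and 3 falls with all 12 libraries in the fit. Elovl5 elongates polyunsaturated fatty acids. It read 154, 145 and 243 CPM in controls and 51.9, 46.5 and 46.7 CPM in knockouts (log2 fold change -1.90, SE 0.18, adjusted p = 5.55e-05). Control 3 was the highest for Elovl5 and also for the stearoyl-CoA desaturase Scd1. Scd1 read 3390, 3587 and 7446 CPM in controls and 1237, 366 and 182 CPM in knockouts, a wide spread within both groups without overlap (-3.01, SE 0.55, adjusted p = 0.00457). Its value was -4.14 without knockout 1, and it lost its call with all 12 libraries in the fit. The desaturases that insert the delta-5 and delta-6 double bonds moved less and varied less. Fads1 went from 619, 570 and 718 CPM to 265, 374 and 282 CPM (-1.05, SE 0.14), and Fads2 from 118, 99.5 and 111 CPM to 48.5, 53.5 and 65.6 CPM (-0.97, SE 0.13).

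Among 14 enzymes that exchange the acyl chains of phospholipids, 1 passed, where 7.26% of all genes tested did, so nothing is read from this count about the list. Lpgat1, an acyltransferase of lysophospholipids, went from 372, 309 and 332 CPM to 208, 173 and 190 CPM (log2 fold change -0.82, SE 0.11, adjusted p = 0.000755). Lpcat3, which puts polyunsaturated chains into phosphatidylcholine, stood at 73.5, 68.1 and 86.3 CPM and at 59.3, 64.1 and 61.3 CPM without passing (-0.31, SE 0.12, adjusted p = 0.181). The lysophospholipase Lypla1 did not pass either (-0.24, SE 0.10).

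Both routes to phosphatidylcholine held genes that fell, 5 of 17 with 0 rises. Pemt methylates phosphatidylethanolamine to phosphatidylcholine. It read 84.8, 102 and 96.8 CPM in controls and 46.1, 42.9 and 46.0 CPM in knockouts, with the knockouts close together and under every control (log2 fold change -1.07, SE 0.12, adjusted p = 0.000175). In the choline route the transporter Slc44a1 went from 58.1, 64.8 and 65.1 CPM to 37.0, 31.9 and 24.2 CPM (-1.01, SE 0.15). Pcyt1a, the rate-limiting enzyme of this route, went from 154, 146 and 143 CPM to 94.2, 102 and 95.5 CPM (-0.60, SE 0.10). Etnk2, a kinase of ethanolamine, went from 91.5, 115 and 91.9 CPM to 62.7, 68.6 and 62.7 CPM (-0.62, SE 0.13).

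The methyl groups that Pemt uses come from S-adenosylmethionine, and 7 of 21 genes of that cycle fell, with 0 rises. Mat1a makes S-adenosylmethionine in adult liver. It read 1848, 1563 and 1647 CPM in controls and 1020, 633 and 530 CPM in knockouts (log2 fold change -1.21, SE 0.20, adjusted p = 0.00207). Its consumers fell with it. Gnmt, which methylates glycine, went from 294, 321 and 308 CPM to 141, 130 and 117 CPM (-1.25, SE 0.11), and Gamt, which makes creatine, from 71.5, 72.6 and 75.5 CPM to 30.9, 35.1 and 40.3 CPM (-1.05, SE 0.13). Downstream, Cth makes cysteine from cystathionine and went from 282, 243 and 262 CPM to 113, 87.0 and 85.5 CPM (-1.46, SE 0.13). Sardh, which recovers glycine from sarcosine, fell as well (-0.98, SE 0.13). For Gnmt and Cth the adjusted p was 2.8e-05, and the values of the groups lay far apart beside their spread within a group.

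**Figure D3:**
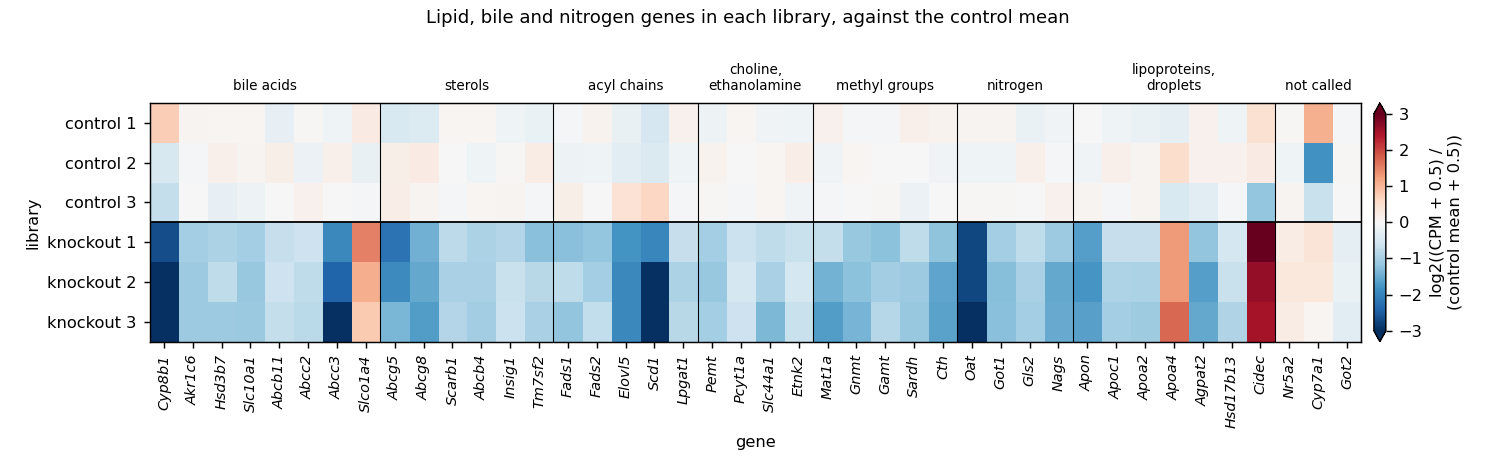
Level of 42 lipid, bile and nitrogen genes in each of the 6 libraries, as log2 of (CPM + 0.5) over (control mean + 0.5), with colours limited to 3 either way. The knockout rows are blue for nearly all called genes and red for Slco1a4, Apoa4 and Cidec, while Nr5a2, Cyp7a1 and Got2 at the right were not called.

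De novo lipogenesis had 7 of 14 genes lower and 0 higher (median log2 fold change -0.46), but the count moved between settings. It was 2 without control 3 (with 1 rise), 3 without knockout 1 or knockout 2, 4 without knockout 3 and 1 with all 12 libraries in the fit. Fasn, the fatty acid synthase, went from 110, 109 and 138 CPM to 49.8, 54.3 and 82.7 CPM (log2 fold change -0.94, SE 0.18, adjusted p = 0.00601) and lost its call with all 12 libraries. The regulator Srebf1 (-0.79, SE 0.18) lost it without control 3 or knockout 1. Elovl6, which extends palmitate, was lower (-0.70, SE 0.16) and lost its call with all 12 libraries and without control 3 or knockout 2.

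Triglyceride and droplet genes changed in both directions. Agpat2, which adds the second acyl chain to glycerol phosphate, went from 46.4, 46.1 and 33.6 CPM to 18.3, 13.1 and 14.2 CPM (log2 fold change -1.45, SE 0.19, adjusted p = 0.000536). Ces1e, a carboxylesterase, fell (-1.02, SE 0.13), and so did the droplet protein Hsd17b13 (-0.70, SE 0.12). The phosphatidate phosphatase Lpin1 stood higher, at 580, 204 and 230 CPM in controls and 1229, 767 and 820 CPM in knockouts (1.48, SE 0.32, adjusted p = 0.0139, and 2.11 without control 1), and lost its call under DESeq2 and without control 3. The droplet coat gene Plin4 (2.13, SE 0.45) lost its call with all 12 libraries and without control 3. Over the lists, 2 rose and 3 fell of 18 triglyceride and VLDL genes, and 2 rose and 2 fell of 16 droplet and lipolysis genes. Of the droplet calls 1 rise was left without control 3, and 1 fall without control 3, knockout 2 or knockout 3. Both triglyceride rises were lost under DESeq2 and without control 3.

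The droplet-fusion gene Cidec rose from 1.96, 1.63 and 0.308 CPM to 15.3, 10.6 and 9.62 CPM, with the lowest knockout above every control (log2 fold change 3.24, SE 0.44, adjusted p = 0.000702). Cidec is a gene of white fat that liver expresses when it stores lipid. Of 6 adipocyte markers, Adipoq, Lep, Retn and Plin1 had no count in any of the 6 libraries. Cfd had counts, but too few to test. Car3, the only adipocyte marker with enough counts to test, is also a liver gene, and it was lower, from 2773, 2272 and 1854 CPM to 1149, 836 and 708 CPM (-1.36, SE 0.18). The summed level of the 6, 1854 to 2773 CPM in controls and 708 to 1161 CPM in knockouts, was nearly all Car3. It is therefore no further measure of fat cells. The remainder, Cfd, showed in knockouts 1 and 2, where the sums of 1161 and 839 CPM stood above Car3. In controls the sum equalled Car3 as rounded. The part of fat cells in the rise of Cidec was not tested.

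Uptake and burning of fatty acids had few firm calls. Vldlr, the VLDL receptor, went from 8.64, 11.4 and 7.09 CPM to 1.36, 0.817 and 0 CPM (log2 fold change -3.53, SE 0.53, -4.39 without knockout 1), with the call lost when all 12 libraries entered the fit. Dbi, the acyl-CoA binding protein, went from 656, 824 and 855 CPM to 446, 458 and 462 CPM (-0.77, SE 0.12, adjusted p = 0.00144). Of 19 uptake and activation genes 4 fell and 1 rose, with 2 falls without control 3 or knockout 2 and with all 12 libraries. The rise was lost under DESeq2, with all 12 libraries, and without control 2, control 3 or any 1 of the knockouts. Of 34 oxidation and ketogenesis genes 4 fell and 0 rose. That count was 1 without control 3, knockout 2 or knockout 3, 2 without control 2, and 11 without knockout 1. Among these, the peroxisomal thiolase Acaa1b went from 351, 450 and 382 CPM to 239, 156 and 126 CPM (-1.18, SE 0.19, adjusted p = 0.00207).

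Apolipoproteins fell in 6 of 14 cases and rose in 1, with 3 falls without control 3 or knockout 2. Apon was the firmest. It read 231, 212 and 243 CPM in controls and 71.9, 66.2 and 73.4 CPM in knockouts (log2 fold change -1.70, SE 0.11, adjusted p = 2.45e-06), and its promoter window is printed above. Apoa2, a major protein of HDL, went from 3946, 4799 and 4790 CPM to 2805, 2342 and 2158 CPM (-0.89, SE 0.13), and Apoc1 from 2537, 3060 and 2726 CPM to 1718, 1457 and 1369 CPM (-0.87, SE 0.13). Apoa4, made mainly in gut and, with steatosis, in liver, went the other way, from 26.3, 46.9 and 23.4 CPM to 78.3, 78.4 and 108 CPM (1.47, SE 0.22, adjusted p = 0.00139).

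The largest rises were of genes nearly without counts in control liver. Tff3, a secreted trefoil peptide of mucosal epithelia, read 0.393, 0 and 0.925 CPM in controls and 21.0, 22.9 and 19.2 CPM in knockouts (log2 fold change 5.31, SE 0.41, adjusted p = 1.29e-05, 6.41 without control 3). Its call was lost with all 12 libraries in the fit. Olig1, a transcription factor of oligodendrocytes, read 0, 1.22 and 0.925 CPM and 11.2, 15.9 and 18.5 CPM (4.30, SE 0.48, adjusted p = 0.000151). The protocadherin gene Pcdh11x went from 1.18, 0 and 0.308 CPM to 8.14, 9.39 and 9.26 CPM (4.07, SE 0.52, 5.35 without control 1). In these 3 genes every knockout stood far above the highest control. Ntrk2, a neurotrophin receptor, went from 1.18, 0.816 and 0.617 CPM to 12.2, 27.8 and 11.8 CPM (4.25, SE 0.52), with the call lost when all 12 libraries entered.

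Other rises in this group were less even between libraries. The cell cycle inhibitor Cdkn1a, which encodes p21, read 1.96, 0.816 and 1.85 CPM in controls and 13.6, 7.35 and 29.2 CPM in knockouts (log2 fold change 3.39, SE 0.56, and 2.72 without knockout 3), and was lost with all 12 libraries. Vwc2l, a secreted protein with a von Willebrand domain, went from 4.32, 0.408 and 0 CPM to 21.0, 12.2 and 39.5 CPM (4.02, SE 0.66). Its value was 6.80 without control 1 and 3.32 without control 3, and DESeq2 did not call it. Pde6c, a phosphodiesterase of cone cells, was 3.57 higher (SE 0.68, 7.05 without control 3) and was lost with all 12 libraries.

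Other genes rose from a measurable control level. Serpine2, an inhibitor of thrombin and plasminogen activators, went from 12.6, 8.97 and 10.5 CPM to 89.5, 79.2 and 82.7 CPM (log2 fold change 2.97, SE 0.15, adjusted p = 2.77e-07). The knockouts differed among themselves by less than the controls did in proportion. Serpina12, the adipokine vaspin, rose by 2.75 (SE 0.37), and Omd, a small proteoglycan of bone, by 2.63 (SE 0.46).

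**Figure D4:**
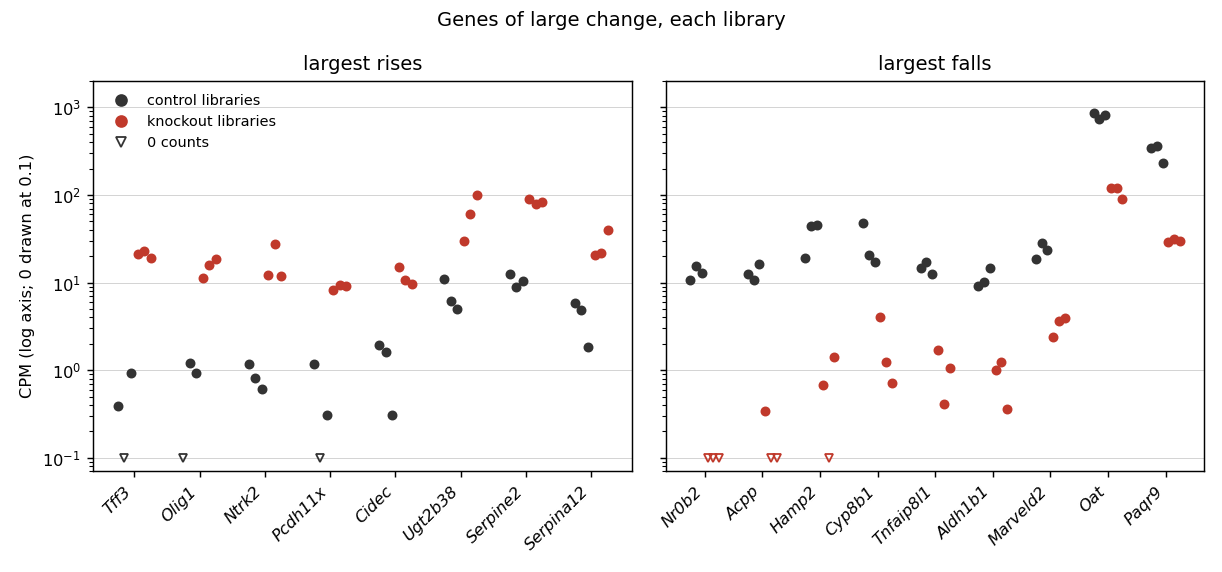
Level in CPM (log axis, 0 drawn at 0.1 as an open triangle) of 8 genes among the largest rises (left) and 9 among the largest falls (right), 1 point per library, controls dark and knockouts red. The 2 groups do not overlap for any of the genes drawn, and Serpine2, Oat and Paqr9 show tight knockout libraries.

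The steepest falls beyond the classic targets were nearly as complete as that of Nr0b2. For Acpp, an acid phosphatase, the 3 controls together held 111 counts and the 3 knockouts 1. For Atp6v0d2, a subunit of the proton pump of vesicles, they held 64 and 1. The ratio of normalized counts was 111 for Acpp (exact 95% interval 19.4 to 4404) and 63.7 for Atp6v0d2 (exact 95% interval 11.0 to 2556). Without the single library that held the knockout count the gene was at least 23.6-fold lower for Acpp (knockout 1) and at least 14.9-fold lower for Atp6v0d2 (knockout 2). Without other knockouts the ratio was as low as 72.7 for Acpp (without knockout 3) and 40.8 for Atp6v0d2 (without knockout 1). Hamp2, a copy of the hepcidin gene, went from 18.9, 44.9 and 46.0 CPM to 0.678, 0 and 1.43 CPM (log2 fold change -5.57, SE 0.54, and -6.47 without knockout 3). Its reads may be shared with Hamp, which stood at 231, 1891 and 1285 CPM in controls and 372, 701 and 1165 CPM in knockouts and did not pass (-0.61, SE 0.54).

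Among abundant transcripts, Paqr9 and Oat had the steepest falls with tight libraries. Paqr9, a membrane receptor of the progestin and adipoQ family, read 345, 364 and 230 CPM in controls and 29.2, 31.4 and 29.6 CPM in knockouts (log2 fold change -3.38, SE 0.17, adjusted p = 2.77e-07). Oat, the mitochondrial ornithine aminotransferase, read 855, 733 and 816 CPM and 120, 121 and 90.5 CPM (-2.86, SE 0.14, adjusted p = 2.77e-07). Tnfaip8l1, a lipid-binding relative of TNF-induced protein 8, went from 14.5, 17.1 and 12.6 CPM to 1.70, 0.408 and 1.07 CPM (-3.69, SE 0.38). Aldh1b1, a mitochondrial aldehyde dehydrogenase, went from 9.04, 10.2 and 14.5 CPM to 1.02, 1.23 and 0.356 CPM (-3.67, SE 0.43). Marveld2, which encodes tricellulin of the contacts where 3 cells meet, went from 18.5, 28.5 and 23.7 CPM to 2.37, 3.67 and 3.92 CPM (-2.82, SE 0.28). Rcan2, an inhibitor of calcineurin, fell by 2.83 on the log2 scale (SE 0.39) and Fam198a by 3.32 (SE 0.61, and by 4.49 without knockout 1). Il1rn, the interleukin 1 receptor antagonist, was lower by -2.65 (SE 0.54), with -3.80 without knockout 2, -2.06 without knockout 3 and no call without control 3.

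In nitrogen metabolism 6 of 18 urea cycle and glutamine genes were lower and 0 higher, 4 of them enzymes and 2 transporters. Besides Oat, Got1, the cytosolic aspartate aminotransferase, went from 314, 270 and 305 CPM to 147, 121 and 124 CPM (log2 fold change -1.18, SE 0.12, adjusted p = 5.62e-05). Gls2, the liver glutaminase and a textbook LRH-1 target, went from 152, 196 and 178 CPM to 103, 89.0 and 86.2 CPM (-0.92, SE 0.12). Nags makes the activator that the first urea cycle enzyme needs. It went from 20.8, 21.6 and 24.7 CPM to 10.2, 7.35 and 7.48 CPM (-1.42, SE 0.21). Amino acid catabolism was mixed, with 3 of 38 genes higher and 5 lower, and 11 lower without knockout 1. In tryptophan breakdown, Afmid (-1.21, SE 0.19) and Haao (-0.76, SE 0.12) fell while Acmsd, which diverts the pathway from NAD synthesis, rose from 39.7, 22.8 and 29.9 CPM to 81.4, 68.2 and 64.8 CPM (1.21, SE 0.18). The serine dehydratase Sds fell (-0.99, SE 0.16).

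Genes of both ends of the liver lobule changed. Of 15 pericentral hepatocyte genes 5 fell and 0 rose. They included Tbx3, a transcription factor of the Wnt-driven zone, which went from 49.5, 37.1 and 65.7 CPM to 12.5, 17.6 and 18.5 CPM (log2 fold change -1.66, SE 0.22, adjusted p = 0.000614). The vitamin C enzyme Gulo (-0.89, SE 0.13) and the glutamate transporter Slc1a2 (-0.81, SE 0.15) were the others of this zone named by the rule, beside Oat. Of 16 periportal genes 5 fell and 2 rose. Ctsc, a protease of lysosomes, went from 60.5, 130 and 134 CPM to 38.6, 27.4 and 34.2 CPM (-1.69, SE 0.25), whereas the P450 Cyp2f2 rose from 1732, 1756 and 1580 CPM to 3242, 2949 and 3000 CPM (0.86, SE 0.11, adjusted p = 0.000519). Glul, the pericentral glutamine synthetase, was 732, 677 and 625 CPM in controls and 729, 523 and 561 CPM in knockouts and did not pass (-0.17, SE 0.13).

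Detoxification genes went both ways within families. Of 34 cytochrome P450 genes of families 1 to 3, 5 rose and 7 fell, or 2 and 4 without control 3. Cyp2c55 rose from 19.2, 25.3 and 20.7 CPM to 110, 76.4 and 76.2 CPM (log2 fold change 2.02, SE 0.18, adjusted p = 3.02e-05). Its relative Cyp2c38 fell from 145, 127 and 99.0 CPM to 50.2, 20.8 and 15.3 CPM (-2.08, SE 0.31, -2.78 without knockout 1). Cyp3a25 fell from 838, 1004 and 872 CPM to 537, 389 and 318 CPM (-1.13, SE 0.17). In family 4, whose members oxidize fatty acids and eicosanoids at their end, Cyp4f14 fell from 97.4, 116 and 116 CPM to 36.3, 38.0 and 26 CPM (-1.72, SE 0.15, adjusted p = 3.02e-05). P450 genes in tandem arrays are alike, and reads could be split between them.

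Conjugating enzymes were called in both directions. Glucuronosyltransferases and sulfotransferases had 5 of 20 higher and 0 lower, 2 higher without control 3 or knockout 2 and 3 without knockout 3. Sult1a1, a phenol sulfotransferase, rose from 276, 263 and 258 CPM to 492, 463 and 416 CPM (log2 fold change 0.78, SE 0.11, adjusted p = 0.000639). Ugt2b38 rose from 11.0, 6.12 and 4.93 CPM to 30.2, 60.8 and 101 CPM (3.14, SE 0.42). Glutathione S-transferases had 4 of 18 lower and 0 higher, 7 lower without knockout 1. Mgst1, the microsomal member, fell from 2096, 2265 and 2139 CPM to 1228, 1233 and 1203 CPM (-0.83, SE 0.10, adjusted p = 0.000455). Gstm6 (-1.11, SE 0.14) and Gsta3 (-0.65, SE 0.11) fell as well. Of 20 genes of the NRF2 and redox list 1 passed, where 7.26% of all genes tested did. It was the epoxide hydrolase Ephx1 (0.47, SE 0.11), and its call ended without control 1, control 3, knockout 2 or knockout 3. Falls in that list were 0, but 2 without control 1 and 1 without knockout 1.

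Major urinary proteins, pheromone carriers that male liver secretes in large amounts, were the list with the largest share of rises, 10 of 13 against 2.69% of all genes (median log2 fold change 1.66), with 6 rises without control 3. Mup20, which encodes the male pheromone darcin, rose from 1381, 1747 and 988 CPM to 4316, 4837 and 6485 CPM (1.93, SE 0.20, adjusted p = 9.64e-05). Mup8 rose from 2.75, 3.67 and 1.54 CPM to 16.6, 13.5 and 27.4 CPM (2.89, SE 0.37). Mup3 fell from 6095, 6623 and 6317 CPM to 3364, 2631 and 3062 CPM (-1.07, SE 0.13, adjusted p = 0.000232), the only member of the 13 to fall. The central copies of this family are nearly identical, so values of single members are uncertain. Of 21 genes of growth hormone signaling and sex-biased expression 3 rose and 2 fell, with 1 fall without control 3, knockout 2 or knockout 3. Prlr, the prolactin receptor, fell from 364, 360 and 424 CPM to 180, 85.8 and 48.1 CPM (-1.87, SE 0.32, -2.53 without knockout 1). The growth hormone receptor Ghr did not pass (1259, 1140 and 1221 CPM against 1022, 1146 and 1036 CPM).

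Secreted regulators fell in 5 of 18 cases and rose in 0 (1 rise without control 1 or knockout 1). Agt, the angiotensin precursor, went from 130, 133 and 130 CPM to 85.8, 80.8 and 70.5 CPM (log2 fold change -0.73, SE 0.11, adjusted p = 0.00143). Ahsg, the plasma protein fetuin-A, went from 2541, 2416 and 2660 CPM to 1703, 1527 and 1732 CPM (-0.62, SE 0.11). In the insulin and IGF list 4 of 19 rose and 1 fell. Igfbp5, which binds IGFs, rose from 10.2, 7.34 and 8.33 CPM to 31.5, 27.4 and 22.1 CPM (1.64, SE 0.21). The other 3 rises were less firm, since only 1 rise was left without control 3, knockout 2 or knockout 3, and 2 without control 2. Igfbp1 was lower, at 86.0, 55.9 and 120 CPM in controls and 41.4, 10.6 and 11.4 CPM in knockouts (-2.03, SE 0.40, -3.0 without knockout 1), but not under DESeq2 or without control 3. In glucose metabolism 4 of 26 fell and 1 rose, with 2 falls without knockout 2 and 0 rises without control 3 or knockout 3. Gckr (-0.97, SE 0.15) and the gluconeogenic enzyme Fbp1 (-0.59, SE 0.10) were among the falls.

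Of 37 complement and coagulation genes 4 rose and 7 fell. C3, the central component of complement, fell from 9008, 12550 and 12860 CPM to 5851, 6166 and 4815 CPM (log2 fold change -1.03, SE 0.16, adjusted p = 0.00145). C9, the pore-forming last component, rose from 471, 502 and 568 CPM to 808, 1095 and 1175 CPM (1.00, SE 0.14, adjusted p = 0.000956). Serpinf2, the plasmin inhibitor, fell (-0.72, SE 0.13). Rises numbered 2 without control 1, control 3 or knockout 3, and falls 3 without control 3, knockout 2 or knockout 3. Of 23 acute phase genes 4 fell and 0 rose. With 1 library left out the falls lay between 1 (without control 3 or knockout 3) and 7 (without control 1), and without knockout 1 there were 2 rises. All 4 named members of that list lost their calls under some setting. Itih3 (-1.01, SE 0.17) lost it only with all 12 libraries in the fit.

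Among nuclear receptors 1 of 28 rose and 5 fell, with 8 falls without control 1 and 2 without control 3, knockout 2 or knockout 3. Besides Nr0b2, the orphan receptor Nr2c1 fell from 32.6, 31.4 and 36.1 CPM to 18.6, 18.8 and 20.3 CPM (log2 fold change -0.80, SE 0.15, adjusted p = 0.00654). The bile acid receptor Nr1h4 was lower (249, 220 and 245 CPM against 170, 172 and 181 CPM, -0.45, SE 0.10), and its call ended without control 3, knockout 2 or knockout 3. The hepatocyte regulator Hnf4a did not pass, at 648, 590 and 613 CPM in controls and 605, 602 and 582 CPM in knockouts. Of 24 liver transcription factors 3 fell and 1 rose, or 4 rises without control 2. Tbx3 was the only one of the 4 called under every setting. The glucocorticoid-responsive factor Klf15 (-0.71, SE 0.14) lost its call without knockout 2, Cebpb (-0.90, SE 0.19) without control 3, knockout 2 or knockout 3, and the pioneer factor Foxa1 (0.78, SE 0.17) without control 3 or knockout 2.

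Changes were also found in several other groups. In the cell cycle list Ccnd1, the G1 cyclin, rose with Cdkn1a, from 16.5, 28.1 and 24.1 CPM to 43.4, 68.6 and 73.8 CPM (log2 fold change 1.43, SE 0.22, adjusted p = 0.00148), and 0 of 16 fell. These 2 rises were 4 without control 2. In the stress list Atf5, a transcription factor of the integrated stress response, fell from 20.4, 34.2 and 24.1 CPM to 8.81, 11.4 and 9.26 CPM (-1.41, SE 0.23), and the other 3 calls of 20 genes ended under at least 1 setting. The retinoid list had 2 of 17 higher, among them the aldehyde dehydrogenase Aldh1a7 (0.84, SE 0.12), and 4 lower, among them the retinol dehydrogenase Rdh9 (-0.96, SE 0.14). Those 4 falls became 1 without control 2 or knockout 3 and 2 without control 3 or knockout 2. In the sphingolipid list Sgms2, a sphingomyelin synthase, fell from 96.2, 115 and 124 CPM to 65.8, 67.8 and 64.5 CPM (-0.76, SE 0.12). Of its 20 genes 4 fell and 1 rose, with 1 fall without control 3 or knockout 3 and 2 without knockout 2. The rise was lost without control 2, control 3, knockout 2 or knockout 3 and under DESeq2. In the iron list the exporter Slc40a1 rose from 178, 174 and 177 CPM to 249, 273 and 263 CPM (0.57, SE 0.10), but not with all 12 libraries in the fit.

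In the lists of cell contacts and matrix all genes that passed fell, 3 of 19 and 2 of 12, where 4.57% of all genes tested fell. The median log2 fold change was 0.10 for the junction list and 0.32 for the matrix list. Cldn2, a claudin that forms cation and water pores in tight junctions, went from 168, 202 and 173 CPM to 62.0, 57.2 and 58.1 CPM (log2 fold change -1.61, SE 0.12, adjusted p = 6.93e-06). Gjb2, the connexin 26 gene of gap junctions, went from 419, 525 and 496 CPM to 203, 207 and 197 CPM (-1.24, SE 0.11, adjusted p = 3.47e-05). Of 19 actin and junction genes 3 fell and 0 rose (1 rise without control 1 or knockout 1), the third being Gjb1 (-0.61, SE 0.17), which lost its call under 7 of the 11 alternatives. Fn1, the plasma and matrix protein fibronectin, went from 2830, 2723 and 3202 CPM to 1582, 1707 and 1385 CPM (-0.91, SE 0.12). The collagen gene Col27a1 fell from 69.9, 45.3 and 42.9 CPM to 13.9, 21.2 and 20.7 CPM (-1.50, SE 0.22). These were the 2 falls of 12 matrix turnover genes, with 0 rises, or 1 without knockout 1. The groups did not overlap for 3 of the 12 matrix genes that stood higher in the knockouts without passing. Over all 9412 genes tested, 1104 stood higher without overlap, passed or not, and nothing is read from the 3.

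Other lists held few or no calls. By edgeR, 0 of 35 respiratory chain subunits and 0 of 27 interferon and antigen presentation genes passed. At an unadjusted p under 0.05 these were 3 and 4 genes, beside 1893 of all 9412 genes tested, and DESeq2 called 0 and 1. Without knockout 1 the first had 1 fall, and without control 1 the second had 3. Of 18 circadian clock genes 1 passed, where 7.26% of all genes tested did. It was Bhlhe40 (-0.73, SE 0.20), a call that ended under 5 of the 11 alternatives. Smallest in p among the first were the complex subunits Sdhb (-0.42, SE 0.14, adjusted p = 0.102) and Ndufv2 (-0.28, SE 0.12), and among the second B2m (-0.35, SE 0.12, adjusted p = 0.101) and Stat2 (-0.31, SE 0.12). Over all 46 pathway lists, 34 had more falls than rises, 8 more rises than falls and 4 as many of each.

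**Figure D5:**
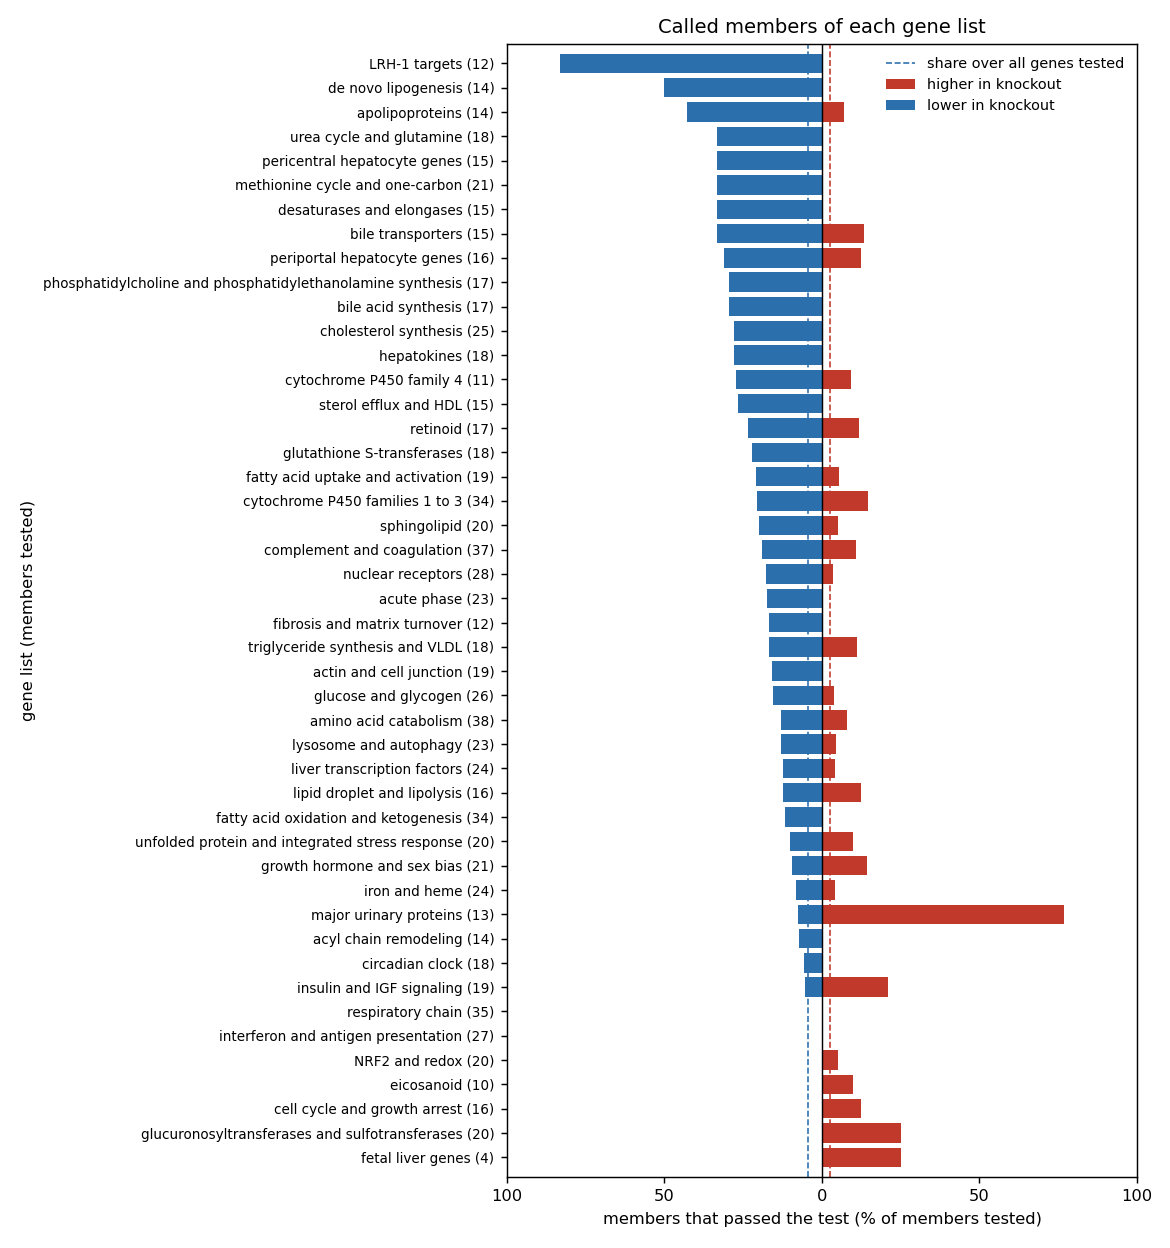
Percent of the tested members of each of the 46 gene lists that were higher (red, right) or lower (blue, left) in the knockouts, with the number tested in brackets and dashed lines at 2.69% and 4.57%, the shares of all genes tested. LRH-1 targets hold the largest share of falls (10 of 12) and the major urinary proteins the largest share of rises (10 of 13).

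Markers of other liver cells were also measured. By edgeR and by DESeq2, 0 of 9 Kupffer cell markers and 0 of 11 endothelial markers passed. At an unadjusted p under 0.05 there were 0 and 2, beside 1893 of all 9412 genes tested. The sums of both lists overlapped between groups (235 to 375 CPM in controls and 264 to 346 CPM in knockouts, and 381 to 496 CPM and 428 to 504 CPM). For stellate cells and fibroblasts, 1 of 8 tested rose, Reln (0.56, SE 0.13), and the sum over the 11 listed was 357 to 423 CPM in controls and 481 to 562 CPM in knockouts, without overlap (median log2 fold change 0.53). The call of Reln ended under 4 alternatives, with all 12 libraries in the fit and without control 2, knockout 1 or knockout 2. Col1a1, the collagen I gene of the same list, stood at 1.18, 3.26 and 4.01 CPM in controls and 2.37, 19.6 and 6.77 CPM in knockouts. The groups overlapped and it did not pass (1.66, SE 0.65, adjusted p = 0.167). Its value lay between 0.64 and 2.14 over the alternatives, and it was called without the filter, with the replicate block and without knockout 1. For cholangiocytes, 1 of 3 tested passed, Spp1, at 46.4, 44.0 and 42.9 CPM in controls and 52.6, 193 and 90.9 CPM in knockouts. Its log2 fold change was 1.33 (SE 0.34) and 0.69 without knockout 2, and the call ended under 6 alternatives. The sum over 10 cholangiocyte markers was 65.7 to 69.5 CPM in controls and 84.1 to 231 CPM in knockouts, and the defining keratin genes Krt19 and Krt7 were at most 1.22 CPM in any library. The part of stellate cells and cholangiocytes in the rises, among them Tff3, Olig1 and Ntrk2, was not tested. Cd4, the single T and NK cell marker tested, went from 1.18, 1.22 and 1.54 CPM to 4.41, 6.53 and 6.77 CPM (2.1, SE 0.40), with the call lost when all 12 libraries entered. The other 8 markers of that list had too few counts to test, and their summed level overlapped between the groups. Nothing is read from Cd4 alone about these cells.

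Genes that changed tended to lie beside each other on the chromosome. With the tested genes placed in the order of RefSeq, 86 of 429 fallen genes (20%) had a fallen neighbour, while 8.87% of all 9373 placed genes did. For rises the figures were 43 of 252 (17.1%) and 5.21%. The 46 pairs of neighbours that fell together include Abcg5 with Abcg8, Fads2 with Fads1 and Oat with Lhpp. Mat1a lies next to Sftpa1, a surfactant protein gene chosen here for that place, which fell too (-2.30). No source used here gives the strand setting of the counts. Reads of overlapping neighbours, and of the near-identical copies in the Mup and Cyp2c clusters, may therefore be shared between them.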

How the data were processed

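RNA sequencing of 6 liver libraries (3 control, 3 knockout, standard diet) was used. Per the labels' protocols, a Nugen Ovation kit turned total RNA into libraries. The build mm9 and the tools TopHat2 2.1.0, HTSeq and DESeq2 1.14.1 are named, with no order, per the submitters' processing notes. The authors deposited raw whole-number counts per gene symbol, used as deposited, with no rows of unassigned reads. How multiply mapped reads were handled is not given in the sources used here. No label says in words that each library is a different mouse. The p-values therefore measure the spread between these libraries, which may be technical.

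The main test was the two-sided quasi-likelihood test of edgeR 4.0.16 (R 4.3.3, limma 3.58.1) on TMM-normalized library sizes, after filterByExpr with a minimum count of 10, which kept 39.1% of the genes listed. Benjamini-Hochberg adjustment ran over all genes tested, with a threshold of 0.05. The common biological coefficient of variation was 0.130. A count of 0 was taken to allow 3 counts over a group (0.364 CPM in controls, 0.366 CPM in knockouts). Limits and intervals cover counting error only.

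The comparison, the gene lists (46 of pathways, 12 of cell types) and the naming rule were chosen with earlier results of these data known. The rule names Nr5a2, the 15 largest rises and 15 largest falls among genes that passed with a group mean of at least 5 CPM and no overlap of the groups, skipping predicted symbols, and the called genes of smallest p in each list, at most 4 (or 2 members where fewer were called). Cyp7a1, Got2, Cyp7b1, Abcb11, Abcc2, Lpcat3, Mat1a, Glul, Ghr, Hamp, Hnf4a, Sftpa1, Nqo2, Rtn4, the cell type markers, the solute carriers and the named neighbours were added after their values were seen. Alternatives were DESeq2 1.42.0, RLE normalization, testing without the filter, a fit of all 12 libraries, the replicate number as a block, and leaving out each library. The main fit was run on simulated counts drawn with the dispersions of these data, with 200 of 9412 genes changed. It called 68% of the 2-fold and 95% of the 4-fold changes. Of its 172 calls 9 (5.23%) were false. Of the tested genes, 8933 matched RefSeq (GRCm38.p6) by symbol and 440 by an older symbol. That build is not the authors', so it served only for names, order and promoter windows. Some genes that the rule picked are not reported here.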

Additional observations from a re-analysis of the deposited data

How the results depend on the processing

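The total of 683 genes (253 higher, 430 lower) became 1098 (424 and 674) without the filter on low counts, when 16146 genes were tested. It was 545 (185 and 360) with DESeq2, 682 (256 and 426) with RLE normalization and 526 (173 and 353) with all 12 libraries in the fit. With 1 library left out the total lay between 308 and 752, the rises between 91 and 293 and the falls between 217 and 459, with fewer samples in the fit. Of 154 genes that the rule named and that passed, 98 passed under every alternative, 38 lost their call without control 3, 29 without knockout 2, 27 without knockout 3 and 28 with all 12 libraries. Of 92 list counts, 35 moved by over 1.5 times without control 3, 27 without the filter and 22 with all 12 libraries, lipogenesis from 7 falls to 1 in the last.

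For Cyp7a1, which did not pass, the log2 fold change turned to -0.19 when control 2 was left out and was 1.38, now called, when control 1 was. With the replicate number as a block 833 genes passed (320 and 513), 672 of them among the 683, and no named call was lost. The deviations of same-numbered libraries correlated by 0.0898, 0.114 and -0.0395, and those of other pairs by -0.1225 to 0.03294. Deviations from the mean of only 3 libraries are tied to each other, so these values cannot tell whether the numbers pair the libraries. The shorter motif core raised the promoter shares from 3.47% to 10.2% (all) and from 9.57% to 16.2% (fallen). Depth limits genes of a few CPM, where single counts move a fold.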

Other observations

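Of 193 solute carriers tested 9 rose and 16 fell, where 2.69% and 4.57% of all genes did, and nothing is read from these counts about the family. Slc25a47, a liver carrier of the inner mitochondrial membrane, stood at 336, 219 and 291 CPM in controls and 84.8, 74.3 and 106 CPM in knockouts (log2 fold change -1.67, SE 0.17). Slc16a10, which carries aromatic amino acids, went from 325, 267 and 354 CPM to 173, 144 and 125 CPM (-1.10, SE 0.14). On the side of the rises, Slc23a1, the vitamin C transporter, went from 69.5, 54.2 and 54.6 CPM to 157, 150 and 153 CPM (1.37, SE 0.12), while Gulo, which makes vitamin C in mice, fell. The mitochondrial carrier gene Slc25a30 rose from 2.75, 4.89 and 3.70 CPM to 13.6, 17.1 and 12.5 CPM (1.91, SE 0.28). In each of these 4 genes the groups did not overlap, and each passed under every alternative run.

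Among genes with an NR5A motif match in the promoter window that no list held, Nqo2, a quinone reductase, fell from 310, 301 and 330 CPM to 153, 141 and 130 CPM (-1.15, SE 0.11). Rtn4, which shapes the endoplasmic reticulum, fell from 89.6, 105 and 100.2 CPM to 31.9, 47.4 and 29.9 CPM (-1.44, SE 0.16). Slc25a30, which rose, holds a match as well, 82 bases before its start site.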
